A study of Mus musculus with 44 samples.

Results

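Amino acid transporters were taken from the count table by name, as every gene whose symbol is that of a numbered member of the solute carrier families Slc1a, Slc3a, Slc6a, Slc7a, Slc36a, Slc38a or Slc43a. This gave 61 of 54960 gene rows. Averaged over 43 libraries, 23 of the 61 exceeded a mean of 1 CPM (counts scaled to the library's effective total), and the same number did so with DESeq2 size factors or with raw totals. Slc38a5, at 1.21 CPM, lay just above that line and Slc7a11, at 0.924 CPM, just below it. The filter on low counts left 30 members for testing; it can be passed through a single group of libraries, so the 30 are not a neutral sample of the 61.

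The libraries are bulk mRNA-seq of mouse plasma cells, the antibody-secreting end stage of the B cell lineage, sorted as CD138high B220- from bone marrow and spleen. All mice had the genotype named BEC-YFP and all received tamoxifen, the YFP- groups included. In the published line, tamoxifen acts through a Cre made by cells that express Prdm1 (Blimp-1) and switches on YFP for good, so YFP+ cells are plasma cells marked at the time of tamoxifen or their descendants, and YFP- cells are unmarked plasma cells of the same mouse. The labels call YFP+ cells LLPC, for long-lived plasma cells, and YFP- cells bulk plasma cells. Mice given tamoxifen at 24 weeks were taken 5 days later (day 5) or 90 days later (day 90, called middle-aged here), and mice given it at 6 to 8 weeks were taken at day 90 (called young). Crossing cohort, organ and sort gives 12 groups. At day 5 there were 3 libraries per group and 4 of YFP+ spleen cells. Middle-aged mice gave 4 libraries per group, and young mice gave 3 of each YFP+ group and 4 of each YFP- group. The 43 libraries came from 13 mice. In 6 mice at day 90 both sorts were available. Young YFP+ libraries came from mice named with an F prefix only, young YFP- libraries from mice with F and M prefixes; a young and a middle-aged mouse are both named M2.

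Library totals, in units of 1e6 counts, ran from 6.64 to 12.7. By its name the deposited table leaves out immunoglobulin genes, so these totals, and CPM throughout, are relative to the remaining counts. Jchain alone took 19.9 to 46.2% of these totals, and all 8 plasma cell markers examined had counts in every group. In 3 libraries Sdc1 (CD138 itself, the sorting marker) was at 149 to 238 CPM, against 321 to 909 CPM in the others: the YFP- spleen library of day-5 mouse 07-26 and both YFP- libraries of middle-aged mouse M2. A further library, the day-5 marrow library of mouse 09-15, has a title and a cell type label that contradict each other and entered no comparison. In bulk RNA, fewer cells of a kind and less RNA per cell cannot be told apart.

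Plasma cells secrete antibody at a very high rate and depend on imported amino acids to do so. SLC3A2 (CD98 heavy chain, 4F2hc) carries no amino acid itself; it brings a light chain of the Slc7a family to the plasma membrane, and the light chain sets the substrate. SLC7A5 (LAT1) and SLC7A8 (LAT2) exchange large neutral amino acids, SLC7A7 (y+LAT1) and SLC7A6 (y+LAT2) exchange cationic for neutral ones, and SLC7A11 (xCT) imports cystine against glutamate. SLC1A5 (ASCT2), SLC38A1 and SLC38A2 are sodium-coupled carriers of glutamine and other small neutral amino acids, and SLC38A9 sits on the lysosome and reports arginine to the kinase complex mTORC1. When amino acids run short, the factor ATF4 binds elements with the core TGATGNAA together with a C/EBP-family partner, and several transporter genes are known targets.

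Of the 61 members, 43 have a promoter window in the RefSeq table for GRCm38.p6, which covers 250 bases before to 50 bases after a transcript start. Shown are the windows of the heavy chain Slc3a2 and its light chain Slc7a7, both higher in YFP+ spleen cells of 6 of 6 mice at day 90, and of Slc43a1, which had the lowest p between organs in YFP+ cells. Windows are written on the gene's strand, 5′ to 3′, with matches of 2 motifs in capitals: TGATGNAA, and the E-box CACGTG (both strands searched; the motifs do not overlap). Slc7a7 has 5 windows, of which 3 hold neither motif; the one shown lies farthest upstream and holds the most matches.
Slc3a2, chr19:8713848-8714147, minus strand: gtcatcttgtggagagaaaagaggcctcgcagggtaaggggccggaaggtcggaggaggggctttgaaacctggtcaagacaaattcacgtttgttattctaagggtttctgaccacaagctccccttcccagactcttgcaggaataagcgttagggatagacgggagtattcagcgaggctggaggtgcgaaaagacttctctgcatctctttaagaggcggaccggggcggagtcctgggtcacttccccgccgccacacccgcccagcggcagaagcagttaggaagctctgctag
Slc7a7, chr14:54417895-54418194, minus strand: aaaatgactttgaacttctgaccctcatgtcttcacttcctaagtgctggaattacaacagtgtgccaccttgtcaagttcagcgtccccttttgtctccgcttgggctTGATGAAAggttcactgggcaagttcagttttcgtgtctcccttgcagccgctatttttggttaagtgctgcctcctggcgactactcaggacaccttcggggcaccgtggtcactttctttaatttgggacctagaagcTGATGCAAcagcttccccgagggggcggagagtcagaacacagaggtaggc
Slc43a1, chr2:84840073-84840372, plus strand: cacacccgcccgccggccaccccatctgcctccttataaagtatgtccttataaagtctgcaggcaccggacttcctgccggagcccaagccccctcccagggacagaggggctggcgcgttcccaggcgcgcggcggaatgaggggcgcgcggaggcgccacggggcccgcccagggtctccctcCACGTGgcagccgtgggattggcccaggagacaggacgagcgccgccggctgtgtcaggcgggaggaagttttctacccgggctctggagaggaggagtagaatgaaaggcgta
The Slc7a7 window holds TGATGNAA at positions 110 and 250, counted from its first base, and the Slc3a2 window holds neither motif. The Slc43a1 window holds the E-box at position 187. Over the table, 3.97% of 32851 windows and 4.51% of 27025 genes had a TGATGNAA match, as did 4 of the 43 members. Among the 16 members above 1 CPM with a window these were Slc1a4 and Slc7a7. CACGTG was in 7.15% of windows and 8.09% of genes, and in 9 of the 43 members. These matches describe the letters in the windows and say nothing of a factor being bound.

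The heavy chain stood far above every other member. Slc3a2 (chromosome 19, 8706882 to 8723369, minus strand, GRCm38) averaged 4087 ± 1599 CPM (SD, n = 43), from 1294 to 7959 CPM, and held on average 87.0% of a library's counts of the 61 members. Next came Slc1a5 with 123.9 ± 38.2 CPM and Slc38a2 with 120.7 ± 22.5 CPM. Per kilobase of exon, which allows levels of different genes to be set side by side, Slc3a2 reached 1158 CPM/kb, Slc1a5 29.7 CPM/kb and Slc38a2 13.7 CPM/kb.

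Light chains of the heavy chain were much scarcer. Slc7a7 was at 11.5 CPM/kb, Slc7a5 at 9.41 CPM/kb and Slc7a6 at 4.47 CPM/kb, out of 25.6 CPM/kb for all light chains together. Slc7a8 (0.164 CPM/kb) and Slc7a11 (0.0664 CPM/kb) had counts in 32 and 30 of 43 libraries. Slc7a13, listed with the light chains here although the data do not show its partner, had a count in 1 library. Slc7a10 had no count in any. A count of 0 over the 43 libraries allows up to 0.00727 CPM (3 counts, counting error only). The ratio of heavy chain to the summed light chains, each per kilobase, was 45.8 ± 12.9 (SD, n = 43) and ranged from 17.1 to 72.4 between libraries. At day 90 it averaged 53.93 ± 10.95 (n = 7) in YFP+ and 44.3 ± 10.8 (n = 8) in YFP- spleen cells, and 54.5 ± 11.8 and 45.3 ± 9.98 in marrow, so the sorts overlapped. In spleen the YFP+ and YFP- means were 58.87 and 41.49 in middle-aged mice but 47.35 and 47.15 in young mice. In marrow they were 61.13 and 47.15 in middle-aged and 45.58 and 43.41 in young mice. The heavy chain is known to serve proteins outside this family too, and these are levels of mRNA.

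Cationic amino acid carriers that work without the heavy chain were led by Slc7a3 (CAT3, 28.3 ± 11.8 CPM), ahead of Slc7a4 (11.6 ± 6.70 CPM) and Slc7a1 (CAT1, 9.59 ± 3.72 CPM). SLC7A4 belongs to the CAT branch by sequence, but its substrate is not established. Slc7a2 (CAT2) had counts in 3 of 43 libraries, with 3.37 CPM in the highest.

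Among sodium-coupled carriers, 7 of 11 Slc38a members exceeded 1 CPM. Slc38a1 averaged 36.7 ± 8.09 CPM, Slc38a10 31.2 ± 8.38 CPM and the lysosomal Slc38a9 18.6 ± 3.62 CPM. Slc38a1 and Slc38a2 lie 44.5 kb apart on chromosome 15. Slc38a2, with a coefficient of variation of 18.7% over the 43 libraries, and Slc38a9, with 19.4%, were the steadiest of the 10 members highest in CPM, and Slc7a7, with 50.6%, the most variable. Slc38a5, by contrast, had counts in only 26 libraries and a coefficient of variation of 160%.

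All 3 Slc43a members were above 1 CPM. They are facilitative carriers: SLC43A1 (LAT3) and SLC43A2 (LAT4) take large neutral amino acids, whereas SLC43A3 is known as a carrier of purine nucleobases, so its family name does not describe its substrate. Slc43a3 averaged 16.3 ± 7.49 CPM, Slc43a1 10.01 ± 6.11 CPM and Slc43a2 5.93 ± 2.10 CPM. Slc43a1 and Slc43a3 are neighbours on chromosome 2, 73.0 kb apart.

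The families of transmitter transporters were mostly silent. Of 19 Slc6a members, which include carriers of GABA, glycine and monoamines, 2 exceeded 1 CPM and 7 had no count in any library. Those 2 were the taurine carrier Slc6a6 (5.36 ± 2.53 CPM) and the glycine carrier Slc6a9 (3.24 ± 2.16 CPM). Of 7 Slc1a members, Slc1a5 and Slc1a4 (6.61 ± 3.41 CPM) exceeded 1 CPM, and the glutamate carrier Slc1a1 reached 0.861 ± 1.15 CPM. Over all families 15 members had no count in any library and 16 had counts but too few to be tested. In the heat map of group means Slc3a2 led in each of the 12 groups, from 3043 to 7462 CPM, while Slc38a2 stayed between 105 and 146 CPM.

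**Figure D1:**
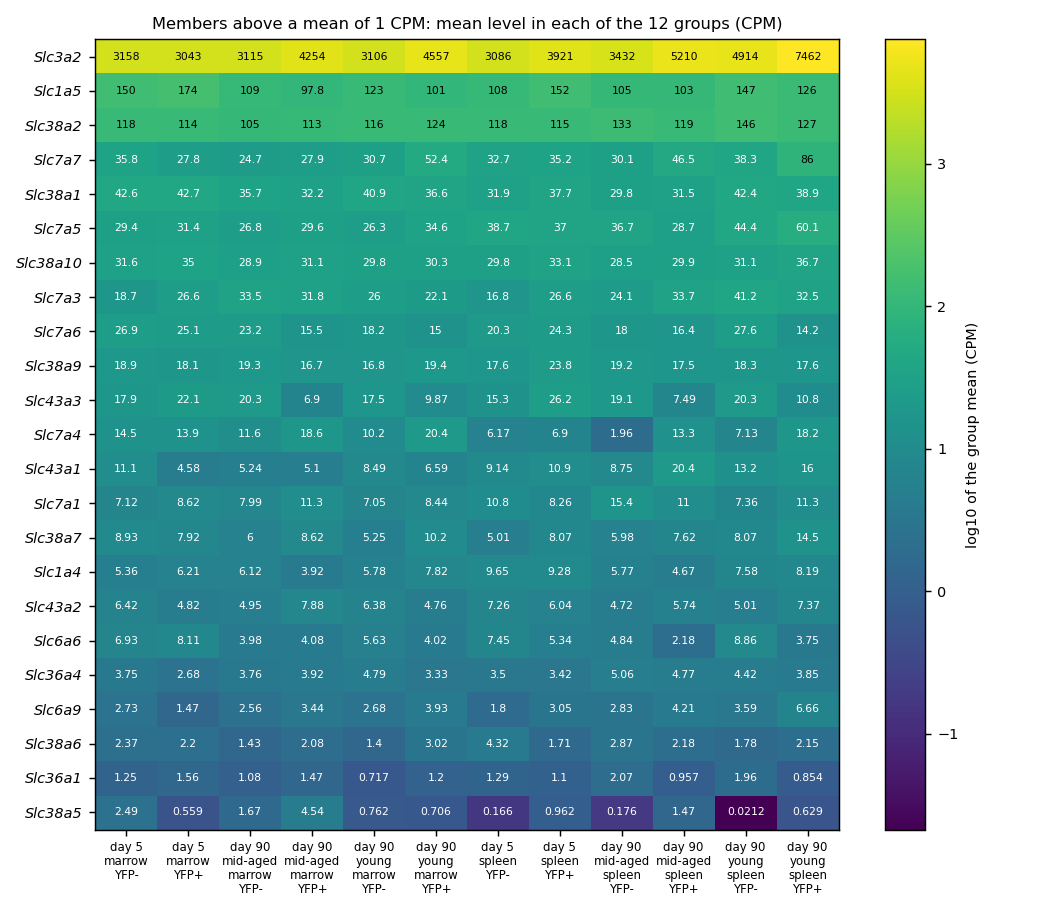
Mean level (CPM, printed in each cell; colour: log10 of CPM) of the 23 members above a mean of 1 CPM, by row, in the 12 groups of 3 or 4 libraries, by column. Slc3a2 is the highest in each column, and Slc43a3 is lower in both YFP+ columns at day 90 than in the YFP- columns beside them, in both organs.

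The first comparison asks how marked, long-lived plasma cells differ from the unmarked cells of the same organ 90 days after tamoxifen, with young and middle-aged mice weighted equally. In spleen, 3 of 30 members passed an adjusted p of 0.05 (edgeR quasi-likelihood test, Benjamini-Hochberg over 12457 genes), 1 higher and 2 lower in YFP+ cells. Over all genes tested, 3.53% passed. The median log2 difference was -0.04 over the 30 members and -0.01 over all genes. Fitted with the mouse as a block, 6 of 30 members passed, 3 in each direction, against 5.99% of all genes.

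Slc7a4 (chromosome 16, 17572018 to 17583214, minus strand) was the member that differed most clearly. YFP- spleen cells of middle-aged mice M2, M3, F15 and F12 had 1.13, 1.43, 4.58 and 0.703 CPM, and their YFP+ cells 8.76, 13.7, 13.7 and 17.2 CPM. In young mice the YFP- spleen libraries lay between 4.64 and 9.43 CPM and the YFP+ libraries between 16.3 and 20.3 CPM. The sorts did not overlap within either cohort, and YFP+ was higher in 6 of 6 mice with both. Slc7a4 averaged 15.4 ± 3.73 CPM (n = 7) in YFP+ and 4.54 ± 3.27 CPM (n = 8) in YFP- spleen cells, a log2 difference of 2.07 ± 0.33 (SE; edgeR adjusted p = 6.61e-05). Slc7a4 passed in all 15 refits with 1 of these libraries removed. With F-prefixed mice alone its difference was 1.83 with an edgeR adjusted p of 0.0943. Its exons overlap those of P2rx6 on the other strand by 554 bases (0.0021 CPM on average).

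Slc43a3 (chromosome 2, 84936579 to 84958509, plus strand) went the other way. YFP+ spleen libraries ran from 5.26 to 11.7 CPM with a median of 9.75 CPM, and YFP- libraries from 11.96 to 26.0 CPM with a median of 19.2 CPM. The 2 sorts did not overlap, and YFP+ was lower in 6 of 6 mice. Slc43a3 averaged 8.90 ± 2.37 CPM (n = 7) against 19.7 ± 5.18 CPM (n = 8), a log2 difference of -1.13 ± 0.28 (edgeR adjusted p = 0.0143). This call held without any 1 library. It was lost when the contrast used middle-aged mice alone (edgeR adjusted p = 0.0926) or F-prefixed mice alone (0.469).

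Slc1a1 (EAAT3, a glutamate and cysteine carrier; chromosome 19, 28835049 to 28913960, plus strand) was scarce in spleen and almost without counts in YFP+ cells. It had 2 counts in all in the 7 YFP+ libraries, both in F15, and 108 counts spread over 7 of 8 YFP- libraries. Scaled to library size, that is 48.3 times more in YFP- cells, with an exact 95% interval for counting error of 13.0 to 404. The edgeR adjusted p was 0.0096; it was 0.349 in middle-aged mice alone and 0.24 in F-prefixed mice alone. In marrow at day 90 the 2 sorts were nearer, with 32 counts in YFP+ and 46 in YFP- libraries, and in spleen at day 5 the YFP+ libraries had more, 94 against 28 counts. Slc1a1 exons overlap 2631 bases of 4430402I18Rik on the other strand (0.209 CPM on average), and the libraries do not mark strand, so the reads of the pair cannot be told apart.

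**Figure D2:**
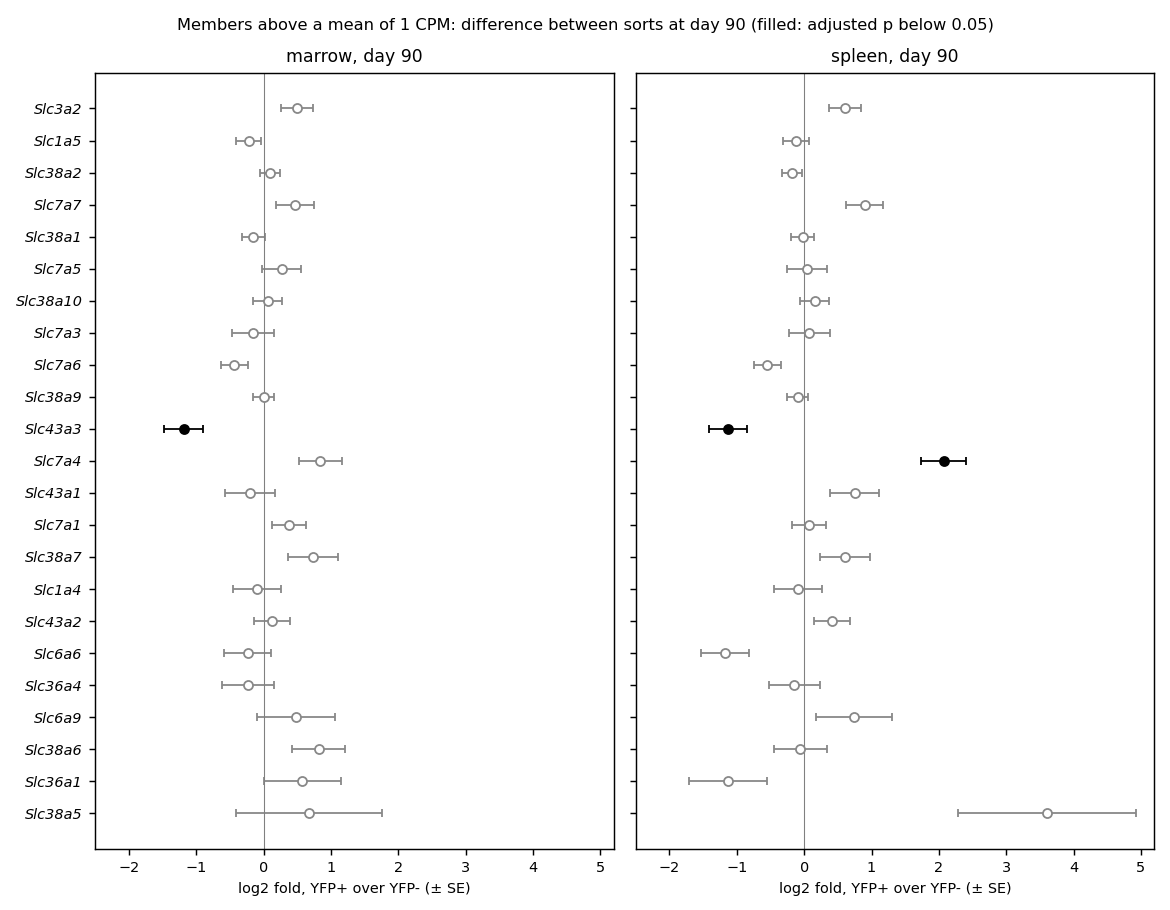
Log2 fold between YFP+ and YFP- cells at day 90 (x axis, ± SE) for the 23 members above a mean of 1 CPM, in marrow and spleen; filled points have an adjusted p below 0.05. Slc43a3 is filled in both organs and Slc7a4 in spleen only, and among the open points Slc38a5 in spleen has the widest error.

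The heavy chain and its light chain Slc7a7 were higher in YFP+ spleen cells of every mouse. For Slc3a2 the pairs, YFP- then YFP+, were 2154 and 5179 CPM in M2, 3525 and 5168 CPM in M3, 5570 and 6357 CPM in F15 and 2480 and 4135 CPM in F12 of the middle-aged mice. In young mice they were 4257 and 7959 CPM in F2 and 3509 and 6906 CPM in F9. Each mouse moved the same way from a different base, so the sorts overlapped while the pairs did not cross. Slc3a2 averaged 6175 ± 1398 CPM against 4173 ± 1634 CPM, a log2 difference of 0.60 ± 0.24 that missed the threshold (edgeR adjusted p = 0.165). With the mouse as a block the difference was 0.75 ± 0.14 (adjusted p = 0.000627). Without the YFP- library of F15, the unblocked edgeR fit gave 0.77 with an adjusted p of 0.0459. It missed the threshold in 14 of 15 refits with 1 library removed, with at most 0.3.

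Slc7a7 (chromosome 14, 54369442 to 54417780, minus strand) ran from 38.1 to 100 CPM with a median of 61.4 CPM in YFP+ spleen libraries, and from 15.5 to 61.4 CPM with a median of 30.3 CPM in YFP- libraries. YFP+ was higher in 6 of 6 mice. The difference was 0.90 ± 0.28 (edgeR adjusted p = 0.0622), and 1.07 ± 0.19 with the block (adjusted p = 0.000414). It also passed by the DESeq2 Wald test (0.0281). Of 15 unblocked edgeR refits with 1 library removed it missed the threshold in 13, with at most 0.151. It passed without the YFP- library of middle-aged F15 (0.0052) or of young M2 (0.024). Slc7a7 averaged 86.0 ± 14.3 CPM (n = 3) in young and 46.5 ± 10.3 CPM (n = 4) in middle-aged YFP+ spleen cells. Exons of Slc7a7 and of Oxa1l on the other strand share 232 bases; Oxa1l itself (23 CPM) differed by 0.06 ± 0.17 (edgeR adjusted p = 0.939).

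None of the other light chains passed in spleen. Slc7a11 was at 1.5 ± 0.97 CPM in YFP+ and 1.3 ± 1.2 CPM in YFP- cells and higher in YFP+ in 5 of 6 mice (edgeR adjusted p = 0.917), and Slc7a8, at 0.939 ± 0.579 and 0.778 ± 0.592 CPM, in 3 of 6. Slc7a6 averaged 15.5 ± 4.32 CPM in YFP+ and 22.8 ± 6.28 CPM in YFP- spleen cells, a log2 difference of -0.55 ± 0.20 (edgeR adjusted p = 0.129). Slc7a5 was at 42.1 ± 22.2 and 40.6 ± 15.7 CPM. Its level was lower in YFP+ in 6 of 6 mice, while its group means, which include mice with a single sort, were close. Members that did not pass could thus share a direction in all 6 mice. Slc6a9 was also higher in YFP+ in 6 of 6 (edgeR adjusted p = 0.618), and Slc38a2 lower in 6 of 6 (0.652). The taurine carrier Slc6a6 was at 2.85 ± 1.89 CPM in YFP+ and 6.85 ± 2.47 CPM in YFP- spleen cells and lower in YFP+ in 5 of 6 mice. Its difference of -1.18 ± 0.35 had an edgeR adjusted p of 0.0523, and -1.37 ± 0.40 with the block had 0.037. It passed without YFP- of F15 (0.0476), YFP+ of F12 (0.031) or YFP+ of young F7 (0.0233). Of 15 unblocked edgeR refits with 1 library removed it missed in 12, with at most 0.167. Slc43a1 was at 18.5 ± 4.05 and 10.97 ± 5.40 CPM, higher in YFP+ in 5 of 6 mice (0.75 ± 0.36, edgeR adjusted p = 0.304). Slc38a5, a glutamine carrier, was at 1.11 ± 1.07 CPM in YFP+ and 0.0987 ± 0.247 CPM in YFP- spleen cells and did not pass (edgeR adjusted p = 0.132).

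**Figure D3:**
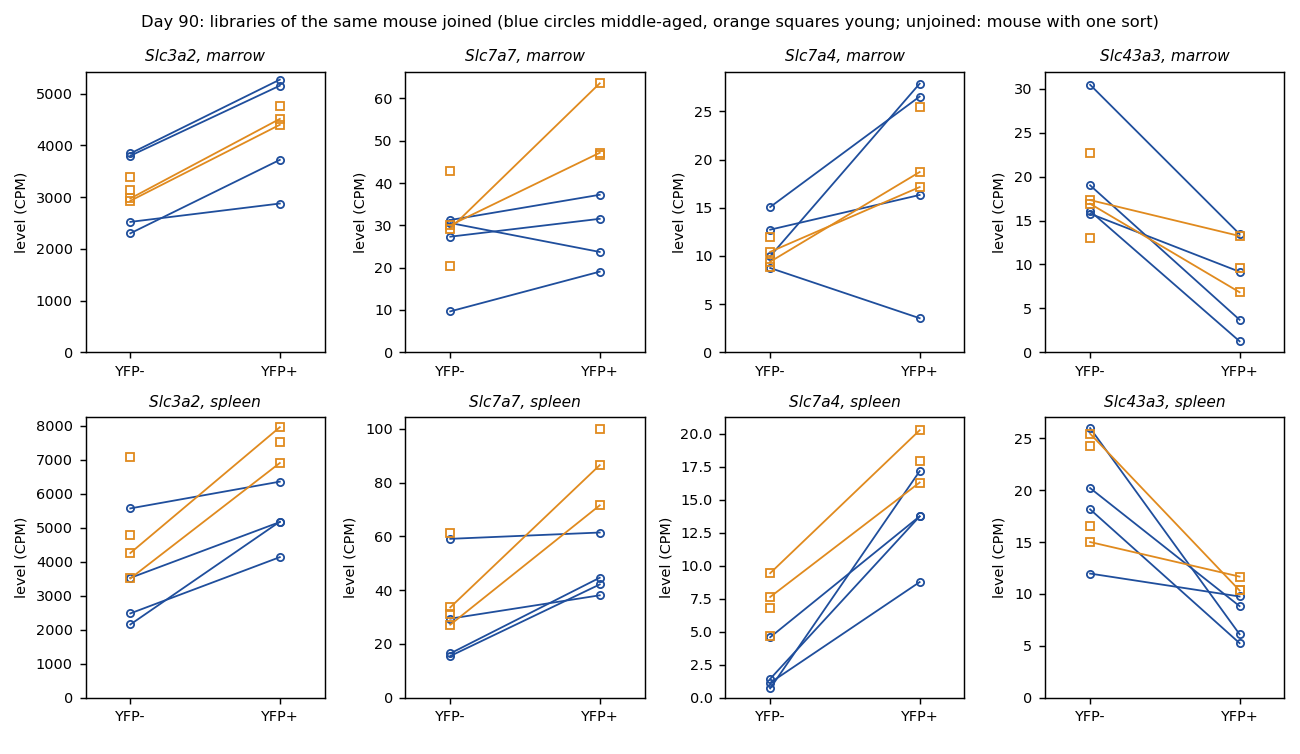
Levels (CPM, y axis) of 4 members in YFP- and YFP+ libraries at day 90, with libraries of 1 mouse joined; circles are middle-aged and squares young mice, and unjoined points are mice with a single sort. The lines of Slc3a2 slope up and those of Slc43a3 slope down in all 6 joined mice in both organs, and those of Slc7a7 and Slc7a4 slope up in all 6 in spleen and in 5 of 6 in marrow.

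A few markers of other cell types also passed in the spleen comparison. Among NK cell markers 1 of 2 tested was lower in YFP+ (Gzma, 5.27 ± 3.68 against 39.0 ± 25.0 CPM), with a summed level of 2.25 to 26.7 CPM in YFP+ and 9.39 to 85.7 CPM in YFP-; Klrb1c was at 0 in both sorts and Ncr1 in YFP+. Of 9 tested neutrophil markers 1 was lower (Ly6g), with sums of 2.95 to 67.6 CPM in YFP+ and 1.38 to 495 CPM in YFP- and no marker at 0. The sums of B cell markers were 60.5 to 156 CPM in YFP+ and 58.0 to 104 CPM in YFP-, with none at 0. Of 4 tested eosinophil, basophil and mast cell markers 1 was higher (Prg2, 2044 ± 633 against 844 ± 206 CPM), with sums of 1280 to 3040 CPM in YFP+ and 455 to 1130 CPM in YFP-. The other markers of that list, Epx, Mcpt8, Cpa3 and Fcer1a, were at 0 in YFP+ cells. No T cell, monocyte or erythroid marker passed; with the mouse as a block 2 of 7 monocyte markers did. The part of these cells in the transporter differences was not tested.

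In marrow at day 90, Slc43a3 was again lower and no other member passed, 1 of 30, against 0.458% of all genes. The median log2 difference was 0.11 over the members and -0.01 over all genes. YFP+ libraries had 13.5, 3.70, 9.17 and 1.25 CPM of Slc43a3 in middle-aged M2, M3, F15 and F12, against 30.5, 19.0, 15.8 and 16.1 CPM in YFP-. In young mice the YFP+ values were 6.84, 9.54 and 13.2 CPM and the YFP- values 13.0 to 22.7 CPM. The sorts overlapped only where middle-aged M2 and young F9 YFP+ passed the lowest YFP- library, and YFP+ was lower in 6 of 6 mice. The log2 difference was -1.19 ± 0.28 (8.17 ± 4.58 against 18.9 ± 5.44 CPM; edgeR adjusted p = 0.0386). It missed the threshold in 8 of 15 refits with 1 library removed, at most with an adjusted p of 0.166 without young F2 YFP+, and in the fit without the 3 libraries lowest in Sdc1 (0.111). The others were the fits without YFP+ of middle-aged M3 or young F7 and without YFP- of middle-aged M2 or M3 or young M7, F2 or F9.

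With the mouse as a block 2 of 30 members passed in marrow, against 0.963% of all genes: Slc43a3, and the heavy chain, which was higher. Slc3a2 averaged 4384 ± 842 CPM in YFP+ and 3110 ± 554 CPM in YFP- marrow cells and was higher in YFP+ in 6 of 6 mice. The difference was 0.50 ± 0.24 without the block (edgeR adjusted p = 0.528) and 0.58 ± 0.14 with it (adjusted p = 0.0279). Slc7a4 was at 19.4 ± 8.43 CPM in YFP+ and 10.9 ± 2.21 CPM in YFP- marrow cells and was higher in 5 of 6 mice, with F12 the exception (3.53 against 8.74 CPM). Its difference of 0.84 ± 0.32 did not pass (edgeR adjusted p = 0.355). Slc7a7, at 38.4 ± 15.4 and 27.7 ± 9.55 CPM, was higher in 5 of 6 mice and did not pass. The sums of B cell markers were 41.4 to 93.7 CPM in YFP+ and 61.3 to 125 CPM in YFP- marrow cells, with Pax5 and Fcer2a at 0 in YFP+. Of 4 plasmacytoid dendritic cell markers 1 was higher (Ccr9), with sums of 294 to 559 and 253 to 394 CPM and none at 0. Their part was not tested.

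The difference between the organs in this contrast was tested directly, and 0 of 30 members passed, with 0% of all genes (edgeR; 4 members had an unadjusted p under 0.05). For Slc7a4 the spleen difference exceeded the marrow difference by 1.23 ± 0.46 (edgeR adjusted p = 1), and for Slc43a3 the differences in spleen and marrow were -1.13 and -1.19.

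At day 5 no member passed the test between marked and unmarked cells. In marrow 0 of 30 members and 0% of all genes passed, and in spleen 0 of 30 and 0% (edgeR; 4 and 1 members had an unadjusted p under 0.05). With the mouse as a block, spleen again gave 0 of 30 members, against 3.66% of all genes. Slc43a3 was at 26.3 ± 6.53 CPM (n = 4) in YFP+ and 15.3 ± 7.72 CPM (n = 3) in YFP- spleen cells, the reverse of the order at day 90, with a difference of 0.78 ± 0.41 (edgeR adjusted p = 0.358). It was higher in YFP+ in 3 of 3 mice. Slc7a4 was at 6.90 ± 2.54 and 6.18 ± 4.56 CPM. In marrow Slc43a1 was at 4.58 ± 0.95 CPM in YFP+ and 11.1 ± 2.97 CPM in YFP- cells without overlap (-1.28 ± 0.58, edgeR adjusted p = 1). In spleen the YFP difference at day 90 in middle-aged mice minus that at day 5 was -2.12 ± 0.56 for Slc43a3 (edgeR adjusted p = 0.185) and 2.64 ± 0.66 for Slc7a4 (0.183). No member passed, against 0.0562% of all genes. With the block 1 of 30 passed, against 0.731%: Slc7a4, at 2.58 ± 0.64 (adjusted p = 0.0496), while Slc43a3 had 0.0654. The DESeq2 Wald test called 2 members here, among 39 of 12457 genes. Without the YFP- spleen library of middle-aged F15 the Slc7a4 value was 3.46 with an edgeR adjusted p of 0.00922. It missed the threshold in 14 of 15 unblocked refits with 1 library removed, with at most 0.352. In marrow 0 of 30 passed, against 0.0161% of all genes (edgeR; 3 members had an unadjusted p under 0.05).

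**Figure D4:**
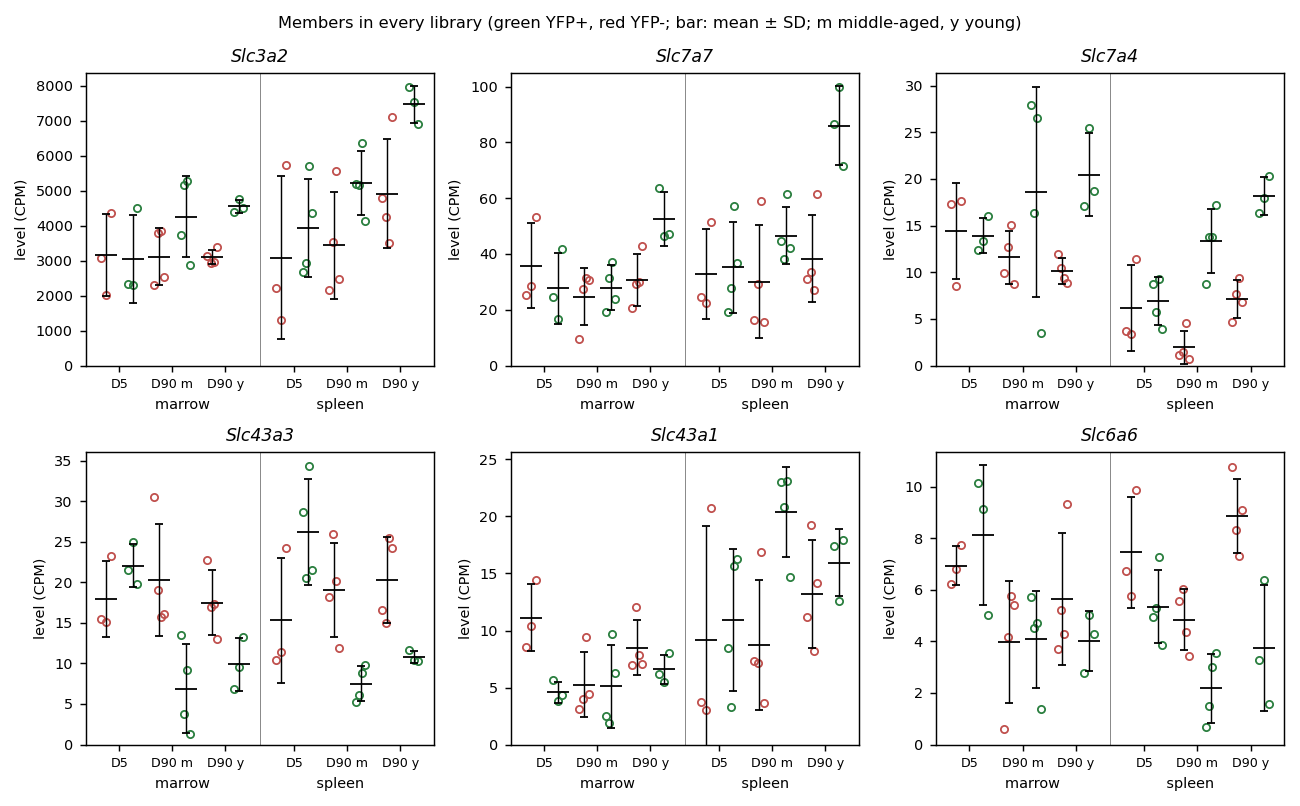
Levels (CPM, y axis) in every library of 6 members, by organ, cohort (D5: day 5; D90 m and y: day 90, middle-aged and young) and sort (green YFP+, red YFP-); bars are means ± SD. At day 90 the green points of Slc43a3 lie mostly below the red ones, which at day 5 they do not, and the green points of Slc43a1 in spleen at day 90 lie above all those in marrow.

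Time since tamoxifen was compared between mice given it at 24 weeks. The day-90 mice were also older when taken, so time since tamoxifen and age at collection cannot be told apart. In YFP+ spleen cells 1 of 30 members passed, against 0.361% of all genes, and it was Slc43a3. The day-5 libraries had 28.7, 20.5, 34.4 and 21.5 CPM, and the day-90 libraries 5.26, 6.11, 8.82 and 9.75 CPM. The 2 times did not overlap. The log2 change from day 5 to day 90 was -1.80 ± 0.39 (26.3 ± 6.53 to 7.49 ± 2.14 CPM, n = 4 each; edgeR adjusted p = 0.0198). Without middle-aged M2 the adjusted p was 0.145, and it was also over the threshold without M3 or F15 or without day-5 mouse 09-01 or 09-29. In YFP+ marrow cells 0 of 30 passed, against 0.136% (edgeR; 7 members had an unadjusted p under 0.05); Slc43a3 was at 22.1 ± 2.61 CPM (n = 3) on day 5 and 6.90 ± 5.49 CPM (n = 4) on day 90, -1.67 ± 0.41 (edgeR adjusted p = 0.0822). Unmarked cells gave 0 of 30 in marrow and in spleen, with 0% of all genes in each (edgeR; 0 and 1 members had an unadjusted p under 0.05). There Slc43a3 was at 17.9 and 20.3 CPM on average in marrow on days 5 and 90 and at 15.3 and 19.1 CPM in spleen. Of 6 T cell markers 1 was lower in YFP+ spleen cells at day 90 (Cd4), with sums of 5.52 to 11.5 CPM on day 5 and 0.943 to 13.6 CPM on day 90. Monocyte marker sums were 0.451 to 168 CPM on day 5 and 167 to 416 CPM on day 90, with none of 7 passing. Their part was not tested.

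Between organs, Slc43a1 (LAT3) had the lowest p of the 30 members in marked cells. At day 90 its YFP+ marrow libraries ran from 1.92 to 9.72 CPM with a median of 6.22 CPM, and the YFP+ spleen libraries from 12.6 to 23.1 CPM with a median of 17.9 CPM. The organs did not overlap, and marrow was lower in 7 of 7 mice. The difference of -1.63 ± 0.39 (5.74 ± 2.79 against 18.5 ± 4.05 CPM) had an edgeR adjusted p of 0.0559. It passed without the marrow library of F15 (0.023) and missed in 13 of 14 refits with 1 library removed, with at most 0.19. In the full edgeR fit 0 of 30 members passed, against 0.193% of all genes (5 members had an unadjusted p under 0.05). With the block the Slc43a1 difference was -1.72 ± 0.31 (adjusted p = 0.00204), and 3 of 30 members passed, all lower in marrow, against 1.61%. The others were Slc7a7 (-0.75 ± 0.18, adjusted p = 0.0265) and Slc3a2 (-0.52 ± 0.13, adjusted p = 0.0372), each lower in marrow in 7 of 7 mice. So the heavy chain, its light chain Slc7a7 and Slc43a1 were all lower in marked cells of the marrow than of the spleen. At day 90 the means of unmarked cells had the same order. In YFP- cells, marrow and spleen had 6.86 and 10.97 CPM of Slc43a1, 3110 and 4173 CPM of Slc3a2, and 27.7 and 34.2 CPM of Slc7a7. None of these passed there. At day 5 the means of YFP+ cells were lower in marrow for all of these (4.58 and 10.9, 3043 and 3921, 27.8 and 35.2 CPM). Those of YFP- cells were slightly higher in marrow (11.1 and 9.15, 3158 and 3086, 35.8 and 32.7 CPM). None passed at day 5. The later counts are again of day 90. Of the 30 members, 25 were lower and 5 higher in YFP- marrow cells, with a median log2 difference of -0.30 against -0.01 over all genes. Ly6g was higher and Vcam1 lower in YFP+ marrow cells, 1 of 9 neutrophil and 1 of 7 monocyte markers. The neutrophil sums were 12 to 2540 CPM in marrow and 2.95 to 67.6 CPM in spleen, and the monocyte sums 9.84 to 1710 and 30.1 to 416 CPM, with no marker at 0 in either. Their part was not tested.

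In unmarked cells at day 90, Slc7a4 was higher in marrow than in spleen, 1 of 30 members, against 0.136% of all genes and, with the block, again 1 of 30 against 0.995%. Slc7a4 was at 10.9 ± 2.21 CPM in marrow and 4.54 ± 3.27 CPM in spleen (n = 8 each) and higher in marrow in 7 of 8 mice, with young F9 level at 9.39 and 9.43 CPM. The log2 difference was 1.55 ± 0.32 (edgeR adjusted p = 0.0282) and 1.64 ± 0.30 with the block (adjusted p = 0.00255). It missed the threshold in 10 of 16 refits with 1 library removed, with at most 0.0921 without the spleen library of young M7, the others being without spleen of middle-aged M2, M3 or F12 or young F2, or marrow of middle-aged M3 or F15 or young M7, F2 or M2, and without the 3 libraries lowest in Sdc1 (0.0858). In YFP+ cells Slc7a4 was at 19.4 CPM in marrow and 15.4 CPM in spleen (0.32 ± 0.33, edgeR adjusted p = 0.933); the difference of those differences is the one tested above, which did not pass. At day 5, 0 of 30 members differed between organs in YFP+ cells, with 0% of all genes, and 0 of 30 in YFP- cells, with 0.00803% (edgeR; 4 and 1 members had an unadjusted p under 0.05). Slc7a4 had the same order then, at 14.5 ± 5.14 against 6.18 ± 4.56 CPM in YFP- cells and 13.9 ± 1.91 against 6.90 ± 2.54 CPM in YFP+ cells.

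Age at tamoxifen was compared at day 90. No member passed in YFP+ marrow (0.0241% of all genes), YFP- marrow (0%), YFP+ spleen (0.0321%) or YFP- spleen (0%) cells by edgeR; the members with an unadjusted p under 0.05 were 1, 0, 3 and 4. The nearest was Slc7a4 in YFP- spleen cells, at 1.96 ± 1.77 CPM in middle-aged and 7.13 ± 1.99 CPM in young mice, 4 libraries each without overlap (-1.88 ± 0.47, edgeR adjusted p = 0.184). The DESeq2 Wald test called 1 member there, among 29 of 12457 genes. Slc7a7 was at 27.9 ± 8.08 CPM in middle-aged and 52.4 ± 9.64 CPM in young YFP+ marrow cells without overlap (-0.91 ± 0.41, edgeR adjusted p = 0.868). Slc3a2 was at 5210 ± 908 CPM in middle-aged and 7462 ± 529 CPM in young YFP+ spleen cells, also without overlap (-0.52 ± 0.34, edgeR adjusted p = 0.97). The 3 young YFP+ mice are all F-prefixed, while the middle-aged mice carry both prefixes.

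Between sorts at day 90, 3 of the 6 related gene lists had 1 gene each past the threshold in spleen, where 3.53% of all genes passed; against that share the counts say nothing particular to the lists. Of 14 other amino acid and peptide carriers tested, 1 was lower in YFP+ spleen cells: Slc15a3, a lysosomal peptide and histidine carrier, at 2.08 ± 0.57 against 7.38 ± 3.53 CPM (-1.83 ± 0.38, edgeR adjusted p = 0.00195; list median -0.14). Of 34 genes of amino acid sensing by mTORC1, 1 was higher: Rragd, a Rag GTPase that recruits mTORC1 to the lysosome, at 6.76 ± 1.94 against 2.12 ± 1.21 CPM (1.68 ± 0.40, edgeR adjusted p = 0.00987; list median 0.00). Of 9 glutamine, glutamate and branched-chain enzymes, 1 was lower: Glud1, glutamate dehydrogenase, at 25.0 ± 6.29 against 43.8 ± 22.6 CPM (-0.78 ± 0.21, edgeR adjusted p = 0.0208; list median -0.36); 2 passed with the block. None of 21 ATF4 programme genes (list median 0.15), none of 20 cytosolic tRNA synthetases (0.03) and none of 5 glutathione genes (0.21) passed in spleen by edgeR; with the block 1 of the 5 did. In marrow none of the 6 lists had a gene past the threshold, and with the block 1 of 14 other carriers had. The list medians in marrow ran from -0.12 to 0.14. From day 5 to day 90, Cebpb, a partner of ATF4 in the programme, rose in YFP+ marrow cells from 31.7 ± 3.23 to 62.1 ± 13.3 CPM (0.97 ± 0.22, edgeR adjusted p = 0.0481), 1 of 21.

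Over the 19 comparisons 27 of the 30 tested members did not pass in the edgeR fit without the block. They include all of the 10 highest in CPM, of which Slc3a2 and Slc7a7 passed in some comparisons with the block. Not passing does not show the 27 to be unchanged: the median biological coefficient of variation was 0.436 for the members and 0.361 for all genes tested.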

How the data were processed

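Plasma cells were sorted by the submitters, and libraries were made with a SMART-Seq v4 and Nextera XT protocol that does not mark strand, per the labels' protocols. Values in the deposited table are expected counts, of which 3.1% are not whole. Tools given in the submitters' processing notes are RSEM 1.3.1, STAR 2.6.1b and DESeq2 1.26.0. The builds GRCm38 and GRCm39 are both listed there, with no role. The deposited table is named as being without immunoglobulin genes, and these are not used here. Positions are GRCm38 (gene annotation) or GRCm38.p6 (RefSeq promoter windows).

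Expected counts were rounded. All 43 libraries with a group (6.64 to 12.7 in units of 1e6 counts) entered 1 fit with a mean per group: edgeR 4.0.16 in R 4.3.3, TMM scaling, a low-count filter at 10, robust quasi-likelihood tests, Benjamini-Hochberg adjustment over 12457 genes, threshold 0.05. The fit was tested on simulated data. P-values without the block measure the spread between libraries of a group, each from a different mouse, and treat all libraries as independent. Those with the mouse as a block measure the spread left after a shift for each mouse is removed. Day-90 contrasts weight young and middle-aged mice equally. CPM is scaled to the TMM-adjusted total; levels per kilobase divide by exon length. The same mice gave several libraries: the median correlation of deviations from group means was 0.20 for 57 pairs of the same mouse and -0.11 for 232 pairs of different mice, so a fit with the mouse as a block is given beside results it changes.

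Alternatives were DESeq2 size factors, no filter (22324 genes), the DESeq2 1.42.0 Wald test, limma 3.58.1 voom, compared groups alone, without the 3 libraries lowest in Sdc1, middle-aged mice alone and leaving out each library. F-prefixed mice alone, and the block with middle-aged mice alone, were chosen after seeing the data. For middle-aged mice alone, all 43 libraries were fitted and only the contrast was limited to those mice. For F-prefixed mice alone, day-90 mice with an M prefix were removed. The 31 libraries left in that fit include all those of day 5. By rule, the text names members that passed a test, the 10 highest in CPM, Slc3a2 and its light chains, and those just above and below 1 CPM; other members named, such as Slc43a1, Slc6a6 and Slc38a5 in comparisons, were chosen after their values were seen. The members and gene lists were chosen with earlier results of these data known. Tests of single B cell markers are not reported here.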

Additional observations from a re-analysis of the deposited data

Results flagged for a closer look

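In 91 group-by-gene sets of 4 libraries, 4 held a library standing apart by Dixon's criterion. For normally distributed values chance alone gives this in about 1 of 20 sets. Slc38a2 was at 124 CPM in the YFP- spleen library of young M7, against 152 to 154 CPM in the others. Slc7a5 was at 74.6 CPM in the day-5 YFP+ spleen library of mouse 09-01, against 23.0 to 25.9 CPM. Slc7a6 was at 35.8 CPM in the day-5 YFP+ spleen library of mouse 09-29, against 18.9 to 21.5 CPM. Slc1a1 was at 0.182 CPM in the YFP+ spleen library of middle-aged F15 and at 0 in the others. With 0 in the others any count meets the criterion, and this flag rests on 2 counts.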

How the results depend on the processing

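Of 340 alternative counts of members called, 279 were equal to the main count or within 1.5 times it and 61 were not. The main count was 0 in most comparisons, where an alternative of 0 scored as equal. The total therefore says little about the comparisons in which members passed. Of 326 alternative log2 differences of named members, 259 kept direction and side of the threshold, 67 did not, and 0 reversed. The cause of these changes was not tested. For YFP+ against YFP- at day 90 in marrow (1 member), the replicate block by mouse and no filter gave 2. Over all genes these called 120 and 71, against 57 in the main fit. The compared groups alone, leaving out the 3 libraries lowest in Sdc1, middle-aged mice alone and F-prefixed mice alone gave 0. Single libraries left out gave 0 to 1. In spleen (3) the replicate block gave 6, DESeq2 and limma voom 5, middle-aged mice alone 1, F-prefixed mice alone 0, and block with middle-aged mice alone 2. In that order they called 746, 663, 618, 100, 76 and 272 of all genes, against 440 in the main fit. Single libraries left out gave 3 to 7, with 7 without YFP- of middle-aged F15. Between organs in YFP+ cells at day 90 (0), the replicate block gave 3, and no filter and compared groups alone 2. DESeq2, limma voom and leaving out the Sdc1-lowest libraries gave 1. In that order they called 201, 49, 93, 96, 18 and 30 of all genes, against 24 in the main fit. Single libraries left out gave 0 to 1. In YFP- cells (1), limma voom, compared groups alone and leaving out the Sdc1-lowest libraries gave 0; single libraries left out gave 0 to 1. From day 5 to day 90, YFP+ marrow (0) gave 1 with no filter, DESeq2 and limma voom. Over all genes these called 28, 133 and 14, against 17 in the main fit. YFP+ spleen (1) gave 2 with no filter, among 62 of all genes, against 45 in the main fit. Each organ gave 0 to 1 with single libraries left out. For age in YFP- spleen (0), no filter and DESeq2 gave 1, among 11 and 29 of all genes, against 0 in the main fit. Single libraries left out gave 0 to 1. For the YFP difference between days in spleen (0), the replicate block gave 1, and no filter and DESeq2 2. Over all genes these called 91, 21 and 39, against 7 in the main fit. Single libraries left out gave 0 to 1. At day 5, leaving out YFP- spleen of mouse 09-29 gave 3 members between sorts in spleen (range 0 to 3) and 2 between organs in YFP- cells (range 0 to 2). The block changed no other count; contrasts between mice have no blocked value. DESeq2 size factors moved the median of all genes by less than 0.1 on the log2 scale. Members under about 1 CPM rest on few counts, and differences there were often not detectable at this depth.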

Other observations

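The day-5 marrow library of mouse 09-15, whose labels contradict each other, was set beside the 6 day-5 marrow libraries with a group. Of 30 tested members, 20 lay within the range of the 6 and 10 outside it. Slc3a2 (4410 CPM), Slc7a4 (10.7 CPM) and Slc43a3 (17.2 CPM) were inside. Slc7a3 was below the range at 9.47 CPM, and Slc36a4 above it at 9.27 CPM.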
